A study of Rattus norvegicus with 46 samples.

Results

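The 9 genes described here encode peptides and calcium-binding proteins by which classes of cortical inhibitory interneuron are recognised: Npy, Sst, Vip, Pnoc, Cck, Pvalb, Calb1, Calb2 and Necab1. A gene was taken when a probe set of the rat array carried its symbol alone in the platform table. Each of the 9 had 1 such probe set, and all 9 lay above the filter on dim probe sets that 11106 of 15866 probe sets passed. They were measured in pieces of frontal lobe of about 30 mg from male F344 rats aged 11 to 12 weeks, killed 96 hours after a single dose of chlorpyrifos or its vehicle. Chlorpyrifos is an insecticide of the organophosphate class that, once activated in the body, blocks acetylcholinesterase.

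The rats belonged to 3 separate experiments, named A, B and C, and 39 of the 46 arrays could be used. Experiment A gave 3 vehicle pieces, 3 at 1 mg/kg, 5 at 10 mg/kg and 3 at 50 mg/kg. Experiment B gave 4 vehicle pieces, 3 at 0.5 mg/kg, 1 at 5 mg/kg and 3 at 30 mg/kg. Experiment C gave 3 vehicle pieces, 4 at 1 mg/kg, 3 at 5 mg/kg and 4 at 10 mg/kg. Titles number the samples within each experiment and dose. Each piece was taken to come from another rat, called an animal with that number below. No rat carried a transgene or other treatment that the labels name.

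Cortical interneurons release GABA and fall into classes with different peptides and calcium buffers. Fast-spiking basket and chandelier cells hold parvalbumin, dendrite-targeting cells hold somatostatin and often neuropeptide Y, and cells that mostly contact other interneurons hold vasoactive intestinal peptide and often calretinin. None of the 9 transcripts is restricted to these cells: Cck is also made by cortical pyramidal neurons, Calb1 by striatal projection neurons, and Sst, Npy, Pvalb and Calb2 by neurons outside the cortex. An array of a tissue piece therefore reports a summed level, in which fewer cells of a type and less RNA per cell cannot be told apart. Gad1, Gad2 and Slc32a1 passed the filter on dim probe sets, and so did all 9 cortical projection genes of the list that the array holds, out of 16. That filter kept 11106 of 15866 probe sets and is not a detection call. Passing it therefore does not show that a cell type was present.

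Some libraries stood apart. The 7 arrays left out do not list their probe sets in the order of the rest, their log2 correlations with the 39 lying between -0.0068 and 0.0025 against 0.935 to 0.979 within the 39. The medians of the 39 ran from 112.2 to 285.6 units of intensity before normalisation. Regional marker scores, each the mean log2 intensity of the tested genes of a fixed list, differed widely between pieces: the striatal score ran from 7.80 to 11.02, the hypothalamic score from 7.32 to 10.91 and the choroid plexus score from 7.43 to 10.31. The ratio of 3′ to 5′ beta-actin signal, a measure of RNA length, lay between 1.23 and 2.15 on 38 arrays and was 4.72 in 1 mg/kg animal 1 of experiment C. That array held the highest Vip (9.96) and Sst (11.41) and the lowest Necab1 (6.91) of the 39, in log2 intensity. The part of RNA length in these values was not tested. In experiment C the labels call vehicle animal 1 and animals 2 and 3 at 10 mg/kg a first repeat, without saying of what. The vehicle labels of experiment B hold a line naming 1 mg/kg that their titles contradict.

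The members differed most in how much they varied between pieces. Calb2, encoding calretinin, spanned 9.76-fold from the lowest piece to the highest, with an SD of 0.85 log2 units over the 39 pieces. Pvalb, encoding parvalbumin, spanned 9.10-fold with an SD of 0.76. These SDs lay at the 99.1 and 98.4 percentiles of the 11106 probe sets, whose median SD was 0.23. Npy spanned 2.17-fold, Sst 2.09-fold and Calb1, encoding calbindin, 2.51-fold, with SDs between 0.25 and 0.30. Vip (3.59-fold), Cck (3.91-fold), Necab1 (3.94-fold) and Pnoc (5.56-fold) lay between, with SDs from 0.37 to 0.49. Pnoc was also the dimmest member, with a mean of 7.14 log2 units, at the 6.0 percentile of the 11106 probe sets. The means of the other members ran from 8.23 (Necab1, percentile 34.5) to 12.36 (Cck, percentile 98.5).

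Experiment accounted for very unequal shares of that variation. It held 62.2% of the variance of Necab1, which encodes a neuronal EF-hand calcium-binding protein, 44.7% of that of Pnoc, the precursor of nociceptin, and 33.5% of that of Sst. For the other 6 members the share lay between 5.5% and 15.3%. Calb2 and Pvalb thus varied mostly among pieces of the same experiment, where Calb2 ran from 8.10 to 11.39 log2 units in A and from 8.22 to 10.71 in C.

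**Figure D1:**
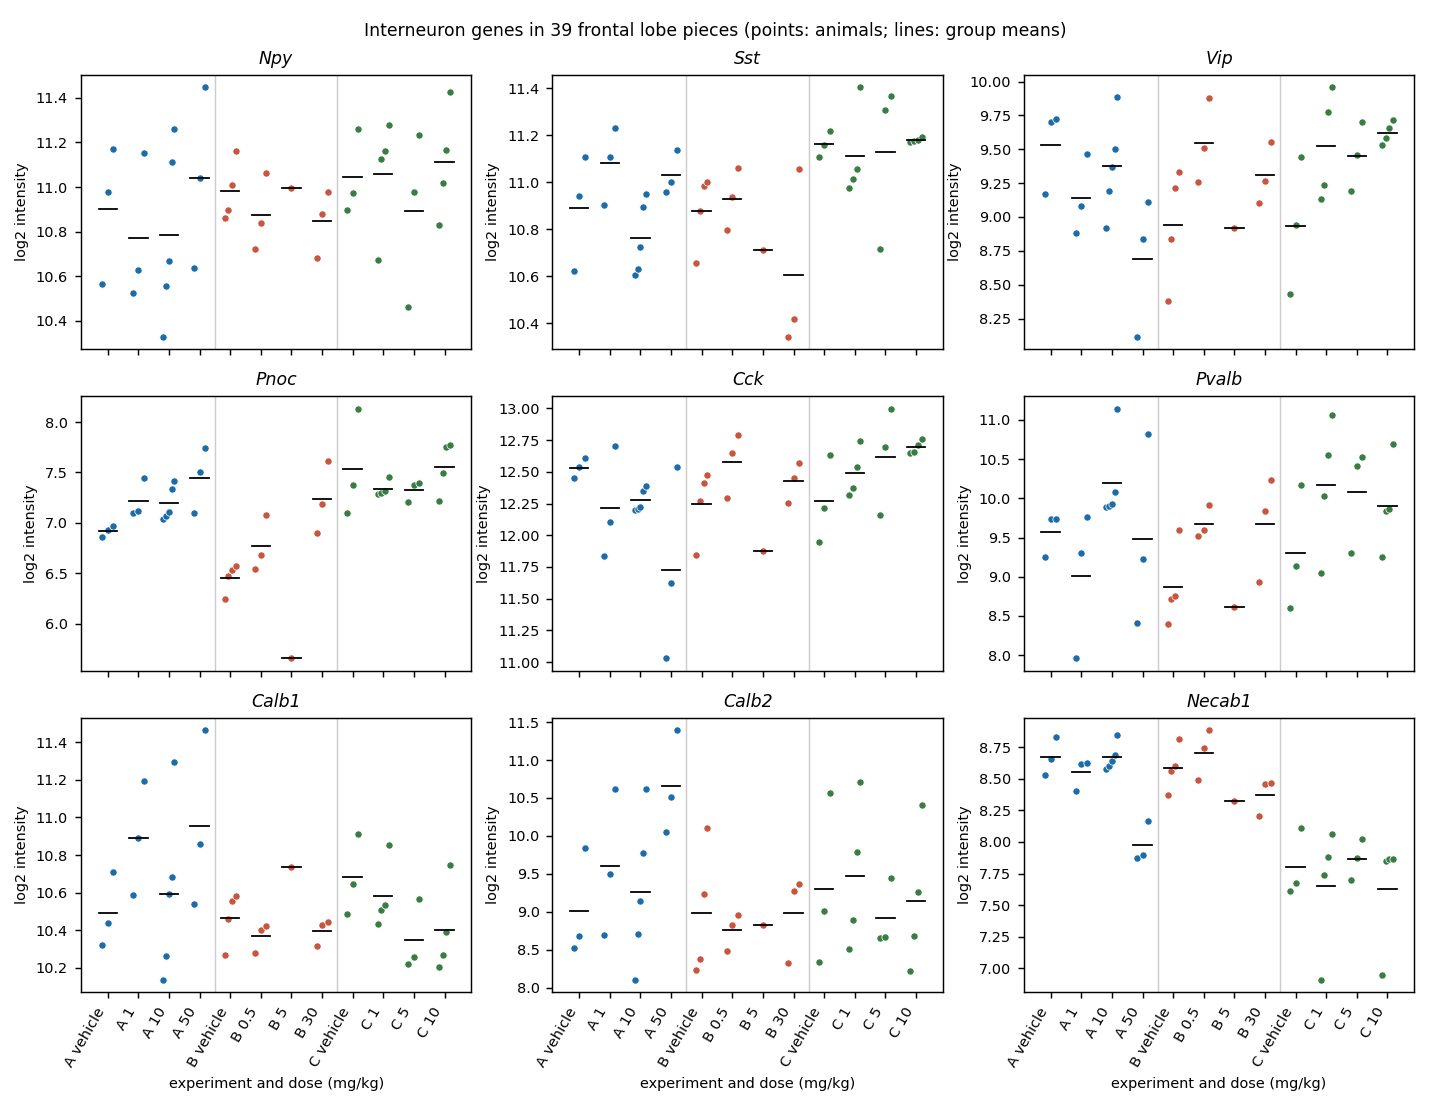
Normalised log2 intensity (vertical axes, scaled per gene) of the 9 interneuron genes by experiment and dose in mg/kg, with a point per animal and a line at each group mean. Necab1 is lowest in experiment C (6.91 to 8.11), Pnoc is lowest in experiment B, and Pvalb and Calb2 spread over more than 3 log2 units. Dosed groups of these 2 genes overlap their vehicle, except Pvalb at 10 mg/kg and Calb2 at 50 mg/kg in A.

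The promoters of Vip and Sst are shown because these peptide genes are textbook targets of the cyclic AMP response element and its binding protein CREB, and the 2 genes vary with different partners below. RefSeq's table of promoter windows on build GRCr8, which runs from 250 bases before to 50 bases after each annotated start, held 4 of the 9 members (Npy, Sst, Vip and Pvalb). The stretches below are read 5′ to 3′ on the gene's strand, and the capitals mark a match to TGACGTCA or to its first bases, TGACG.
Vip, chr1:44470330-44470429, plus strand, -150 to -51 from the start: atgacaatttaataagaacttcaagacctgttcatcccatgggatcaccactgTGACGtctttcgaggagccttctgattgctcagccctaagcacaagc
Sst, chr11:90461466-90461565, plus strand, -80 to 20 from the start: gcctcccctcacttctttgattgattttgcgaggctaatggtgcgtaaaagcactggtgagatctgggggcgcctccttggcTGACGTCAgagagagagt

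Searched on both strands, TGACGTCA was found in the Sst window, with its first base at position 3 from the annotated start, and not in those of Npy, Vip or Pvalb. The shorter TGACG, which lies inside the longer motif, was found in Sst, in Vip with its first base at -97 and in Pvalb at -241. Over all 33469 promoter windows of the same length, 1.83% held TGACGTCA and 21.2% held TGACG. These are matches of letters, and no value of the arrays tests binding there.

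The vehicle pieces showed which members differ between experiments with no dose given. Necab1 and Pnoc differed between the vehicle groups of A, B and C, and the other 7 members did not pass (moderated F test in limma, F = 10.3 with adjusted p = 0.0129 for Necab1 and F = 14.9 with adjusted p = 0.0034 for Pnoc). That is 2 of 9 members, where 7.8% of all 11106 probe sets passed the same test. Animals, dissection and array run cannot be told apart in this comparison.

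Necab1 was lowest in experiment C. The log2 intensity was 8.66, 8.53 and 8.83 in the 3 vehicle pieces of A, 8.56, 8.37, 8.60 and 8.81 in the 4 of B, and 8.11, 7.68 and 7.62 in the 3 of C. Every vehicle piece of C lay below every vehicle piece of A and B. The share of all probe sets with vehicle groups separated in this way was not counted. The vehicle difference was 0.87 ± 0.22 (SE) between A and C, a 1.83-fold higher level in A (limma, adjusted p = 0.032), and 0.79 ± 0.20 between B and C (1.73-fold, adjusted p = 0.0115). For A against C 1.59% of all probe sets passed, and for B against C 10.3%.

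Regional markers also differed between these vehicle pieces. Between A and C 8 of 9 cortical projection genes were higher in A (median 0.43, 1 passing after adjustment), and all 12 striatal genes (median -1.37) and all 8 myelin genes (median -0.54) were lower, against a median of -0.01 over all probe sets. The cortical projection score was 9.88 to 10.16 in the vehicle of A and 9.24 to 9.72 in that of C, without overlap, and 9.29 to 10.15 in that of B, which overlapped C. Their part in the level of Necab1 was not tested.

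The call for Necab1 depends on single pieces. In limma the adjusted p of A against C became 0.0760, 0.0732 and 0.136 without vehicle animals 2, 3 and 4 of A, and 0.0799 and 0.133 without vehicle animals 2 and 3 of C. The difference between B and C had an adjusted p of 0.0529 without vehicle animal 2 of C and 0.0785 without animal 3, and the F test likewise 0.0700 and 0.106. With those pieces left out the log2 differences stayed between 0.69 and 0.94.

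The low level of Necab1 in experiment C extended to its dosed pieces. Over all doses Necab1 ran from 6.91 to 8.11 in C, with a median of 7.86, from 7.88 to 8.85 in A and from 8.20 to 8.88 in B. Only 2 of the 25 pieces of A and B lay at or under the highest piece of C, namely 50 mg/kg animals 3 and 4 of A. In C, 1 mg/kg animal 1 (6.91) and 10 mg/kg animal 4 (6.94) were the lowest, and their beta-actin ratios of 4.72 and 1.83 were the highest of that experiment. The other 12 pieces of C, at 7.62 to 8.11, had ratios of 1.23 to 1.64, while those of A were 1.25 to 1.85 and those of B 1.32 to 2.15. The same ratio for GAPDH was higher in C, at 1.12 to 2.42 over all its pieces against 1.01 to 1.15 in A and 1.08 to 1.24 in B, and at 1.16 to 1.23 against 1.02 to 1.15 between the vehicle pieces of C and A. In the vehicle pieces of B the GAPDH ratio was 1.10 to 1.24, which overlapped C. Their beta-actin ratio was 1.66 to 2.15, against 1.39 to 1.44 in the vehicle pieces of C. The part of RNA length in the level of Necab1 was not tested.

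**Figure D2:**
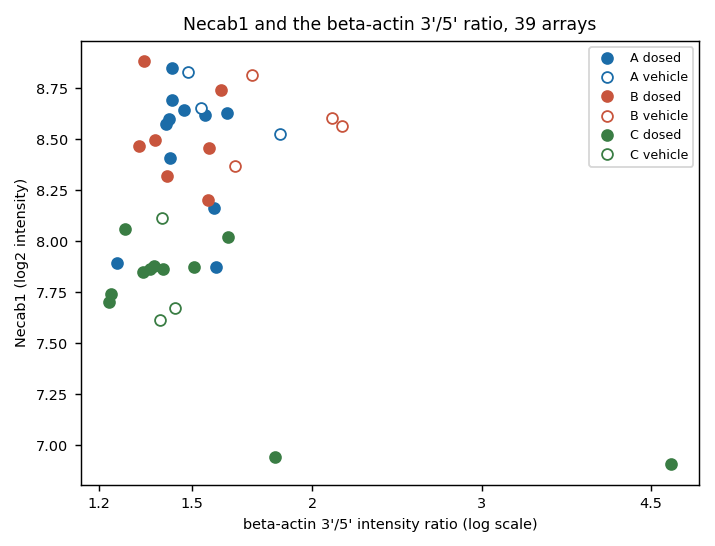
Necab1 log2 intensity (vertical axis) against the 3′/5′ beta-actin intensity ratio (horizontal axis, log scale) on 39 arrays, with colours for experiments, open circles for vehicle and filled circles for dosed pieces. The pieces of C lie at 8.11 or below across ratios shared with A and B, and the lowest, at 6.91 and 6.94, have ratios of 4.72 and 1.83.

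Pnoc, the dimmest of the members, whose peptide nociceptin acts on the opioid-like receptor Oprl1, was lowest in the vehicle pieces of experiment B. Its log2 intensity there was 6.48, 6.57, 6.25 and 6.53, against 6.97, 6.93 and 6.86 in A and 7.10, 7.37 and 8.13 in C, so the 3 vehicle groups did not overlap. How many of all probe sets have vehicle groups without overlap was not counted. The difference between B and C was -1.08 ± 0.20 (SE), a ratio of 0.474 (limma, adjusted p = 9.26e-04). The differences of 0.46 ± 0.20 between A and B (adjusted p = 0.454) and of -0.61 ± 0.21 between A and C (adjusted p = 0.116) did not pass. No member passed between A and B, where 0.117% of probe sets did.

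The highest vehicle value of Pnoc came from a piece with high hypothalamic and choroid plexus scores. Vehicle animal 3 of C (8.13) had a hypothalamic score of 9.96 and a choroid plexus score of 10.03, against at most 7.77 and 7.79 in the other vehicle pieces of C. Without that piece the difference between B and C was -0.78 (limma, adjusted p = 0.0241), and that between A and C was -0.31. The beta-actin ratio also differed, at 1.66 to 2.15 in the vehicle pieces of B against 1.39 to 1.44 in those of C. The part of these scores and of this ratio in the level of Pnoc was not tested.

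Whether dose changed the members was first asked with the experiments pooled and experiment as a term. None of the 9 passed at 0.5, 1, 5, 10, 30 or 50 mg/kg, in the F test for a change at any dose or in the trend with log2(dose + 1) (limma, smallest adjusted p = 0.111). The same fits called 2 probe sets of 11106, or 0.018%, at 50 mg/kg and 0% at each other dose and in both other tests. At an unadjusted p under 0.05 no member was reached at 1, 5 or 10 mg/kg, where 2.54%, 2.48% and 2.68% of all probe sets were. The smallest p at those doses belonged to Calb1 at 0.18 ± 0.15 (SE), Pnoc at -0.30 ± 0.17 and Pvalb at 0.57 ± 0.35.

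Pnoc and Necab1 had the smallest p among the members over the pooled doses, in opposite directions. Pnoc was 0.88 ± 0.20 (SE) log2 units above vehicle at 30 mg/kg (1.84-fold, limma, adjusted p = 0.111) and 0.41 ± 0.20 above at 0.5 mg/kg, or 0.26 without animal 2 at that dose. Vip was 0.64 ± 0.27 above vehicle at 0.5 mg/kg. These 2 of 9 members at 0.5 mg/kg and 1 of 9 at 30 mg/kg had an unadjusted p under 0.05, against 7.62% and 9.25% of all probe sets. At 50 mg/kg Necab1 lay 0.76 ± 0.19 below vehicle (a change of -0.76, adjusted p = 0.226), Cck was at -0.61 ± 0.23 and Calb2 at 1.49 ± 0.55, which makes 3 of 9 against 7.99% of all. Without animal 2 at that dose Cck was at -1.02, and without animal 3 at -0.26.

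Leaving out experiment C, which holds no 50 mg/kg piece, gave a call for Necab1. The change at 50 mg/kg was then -0.68 (limma, adjusted p = 0.0188), and the F test for any dose gave F = 8.53 with adjusted p = 0.0436. The share of all probe sets called without experiment C was not recorded. In the F test over all experiments Pnoc, Necab1 and Vip had an unadjusted p under 0.05, as 6.19% of probe sets did. In the trend Pnoc (0.08 ± 0.03 log2 units per unit of log2(dose + 1)) and Necab1 (-0.07 ± 0.02) did, as 7.66% of probe sets did, and neither passed after adjustment.

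Within experiment A, 50 mg/kg was the dose at which most members stood away from their vehicle. Vip, Cck and Necab1 were lower and Pnoc, Calb1 and Calb2 higher at an unadjusted p under 0.05, that is 6 of 9 members against 9.56% of all probe sets. The 3 lower stand against 5.48% of probe sets and the 3 higher against 4.08%. None passed after adjustment (limma, adjusted p from 0.212 to 0.481 for these 6), where 0.036% of probe sets did. Npy, Sst and Pvalb were at 0.14 ± 0.22, 0.14 ± 0.16 and -0.09 ± 0.53 (SE).

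The 3 lower members are given first. Vip, the peptide of interneurons that inhibit other interneurons, had log2 intensities of 9.11, 8.12 and 8.84 at 50 mg/kg against 9.17, 9.70 and 9.72 in vehicle, a change of -0.84 ± 0.27 (SE). Necab1 had 8.16, 7.88 and 7.89 against 8.66, 8.53 and 8.83, a change of -0.69 ± 0.22. In both genes every dosed piece lay below every vehicle piece, as was so for 8.92% of all probe sets.

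Cck, the cholecystokinin precursor, had 12.54, 11.03 and 11.62 against 12.45, 12.54 and 12.61, a change of -0.80 ± 0.24. Its groups overlapped through animal 2 alone. Without that animal the change of Cck was -1.21 (limma, adjusted p = 0.0118), the only call among the members in this comparison when single pieces were left out. The dosed pieces left there, animals 3 and 4, had hypothalamic scores of 10.67 and 10.91. The share of all probe sets called in that fit was not recorded. Without animal 3 the change of Cck was -0.45 (adjusted p = 0.737), and that of Vip was -0.56.

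Among the higher members Calb2 had 10.06, 10.51 and 11.39 at 50 mg/kg against 8.68, 8.53 and 9.85 in vehicle, a change of 1.64 ± 0.64 (SE, 3.11-fold). Pnoc had 7.10, 7.74 and 7.50 against 6.97, 6.93 and 6.86, a change of 0.53 ± 0.21. For both, all dosed pieces lay above all vehicle pieces, as did 8.35% of probe sets. Calb1 had 10.54, 10.86 and 11.46 against 10.71, 10.32 and 10.44, a change of 0.46 ± 0.21 with overlapping groups, which was 0.21 without animal 4.

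Regional markers moved in the same comparison. All 9 tested cortical projection genes were lower at 50 mg/kg (median change -0.76 against 0.01 over all probe sets), and their score was 9.06 to 9.54 against 9.88 to 10.16 in vehicle. All 5 hypothalamic genes were higher (median 2.43), with a score of 8.74 to 10.91 against 7.43 to 8.53. All 12 striatal genes were higher (median 0.97), with overlapping scores of 9.22 to 10.24 and 8.07 to 10.05. The part of these regions in the values of the 6 members was not tested.

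**Figure D3:**
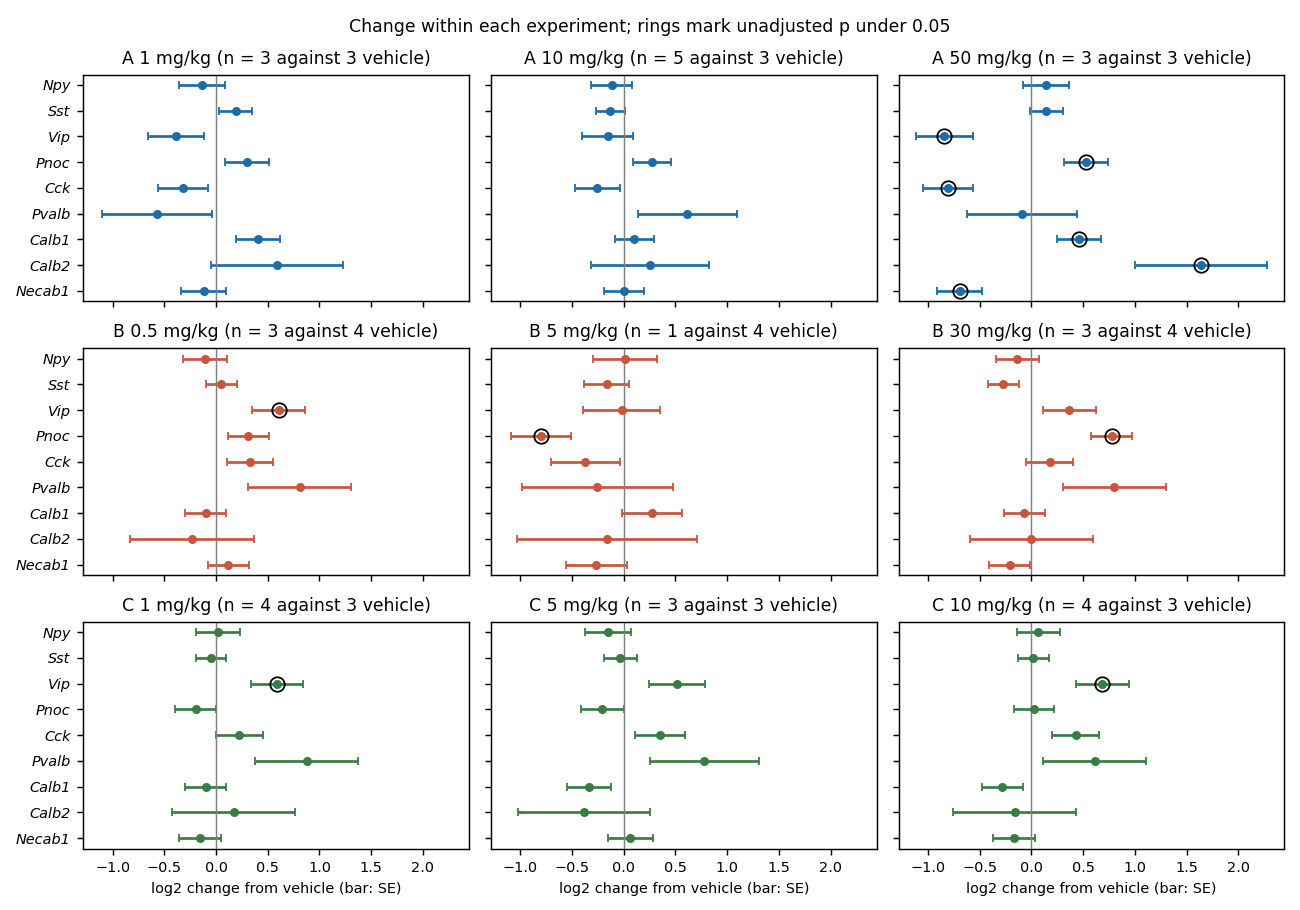
Log2 change from the vehicle of the same experiment (horizontal axes, bars show 1 SE from limma) for the 9 genes in the 9 dosed groups, with rings at an unadjusted p under 0.05. Most rings are at 50 mg/kg in experiment A (6 of 9 genes), and no gene passed after adjustment in any panel.

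Pnoc was the member whose dosed pieces lay most regularly above vehicle in experiment A. All 11 dosed pieces there, at 7.04 to 7.74, were above all 3 vehicle pieces, at 6.86 to 6.97, though the changes at 1 and 10 mg/kg were 0.30 ± 0.21 and 0.27 ± 0.19 (SE). The share of all probe sets with all 11 dosed pieces above vehicle was not counted. Every dose was set against the same 3 vehicle pieces, so the separations by dose are not independent. No member had an unadjusted p under 0.05 at those doses, where 3.21% and 2.89% of probe sets did, and after adjustment 0% and 0.009% of probe sets passed in limma. Non-overlapping groups with the dosed pieces above occurred in 4.79% of probe sets at 1 mg/kg, where Pnoc was the only such member. At 10 mg/kg they occurred in 2.12%, with Pnoc and Pvalb among them, and Cck lay wholly below vehicle there, as did 1.62%.

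In experiment B the 30 mg/kg pieces had Pnoc at 7.19, 6.90 and 7.61, all above the vehicle pieces, a change of 0.78 ± 0.20 (SE, 1.71-fold). That change did not pass (limma, adjusted p = 0.151), and Pnoc was the only member at an unadjusted p under 0.05, against 10.2% of all probe sets. Groups wholly above vehicle made up 6.05%. The beta-actin ratio was 1.32 to 1.56 in these pieces against 1.66 to 2.15 in vehicle, and all 12 striatal genes were lower (median -0.74). Their part in the values of Pnoc was not tested. The 3 pieces at 0.5 mg/kg had 7.08, 6.54 and 6.68, and the single piece at 5 mg/kg had 5.66, the lowest Pnoc value of all 39, a change of -0.80 ± 0.29 from a group of 1 (limma, adjusted p = 0.519). Pnoc was the 1 member at an unadjusted p under 0.05 there, against 7.21% of all probe sets, and after adjustment 0.018% passed. That array had the lowest median intensity before normalisation, 112.2, where the other 38 lay between 228.3 and 285.6. In experiment C none of 11 dosed pieces, at 7.21 to 7.77, lay outside the vehicle range of 7.10 to 8.13.

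Vip and Cck lay on opposite sides of vehicle in experiments A and C. In C the 4 pieces at 10 mg/kg had Vip at 9.66, 9.58, 9.72 and 9.53 against 8.43, 9.44 and 8.94 in vehicle, a change of 0.69 ± 0.26 (SE), and Cck at 12.65 to 12.76 against 11.95 to 12.64, a change of 0.43 ± 0.23. Both genes had every dosed piece above every vehicle piece, as 2.97% of probe sets did. Vip was 0.59 ± 0.26 above vehicle at 1 mg/kg and 0.51 ± 0.27 at 5 mg/kg. The highest Vip value at 1 mg/kg, 9.96, came from animal 1, whose beta-actin ratio was 4.72. Without vehicle animal 1 of C, which is also a labelled repeat, the changes of Vip at 1, 5 and 10 mg/kg were 0.34, 0.26 and 0.43. None of these passed (limma, adjusted p = 0.690, 0.782 and 0.591 for Vip at 1, 5 and 10 mg/kg), and the shares of all probe sets at an unadjusted p under 0.05 were 6.69%, 6.52% and 6.63%.

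In experiment A the change of Vip was -0.39 ± 0.27 (SE) at 1 mg/kg and -0.16 ± 0.24 at 10 mg/kg. The difference between the experiments was tested itself. The 1 mg/kg change of Vip was lower in A than in C by a difference of -0.98 ± 0.37 (adjusted p = 0.613), and the 10 mg/kg change by -0.84 ± 0.35 (adjusted p = 0.718), with Cck at -0.68 ± 0.31 (adjusted p = 0.732). None passed in limma, and 7.35% and 6.62% of probe sets had an unadjusted p under 0.05. The difference at 5 mg/kg between B and C reached no member at that level, against 10.2% of all.

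The vehicle pieces of these experiments also differed in Vip, though not past the threshold. Vip was 0.59 ± 0.27 (SE) higher in the vehicle of A than in that of C (limma, adjusted p = 0.255), or 0.34 without vehicle animal 1 of C, and 0.59 ± 0.26 higher in A than in B (adjusted p = 0.481). Vehicle animal 1 of C, with the lowest Vip and Cck of its experiment (8.43 and 11.95), had the highest striatal score of all 39 pieces, 11.02. At 10 mg/kg in C all 12 striatal genes were lower than in vehicle (median -0.99) and all 9 cortical projection genes higher (median 0.31), and the part of these regions in Vip and Cck was not tested. In B, Vip was 0.61 ± 0.26 above vehicle at 0.5 mg/kg (adjusted p = 0.683), 1 of 9 members against 6.68% of all probe sets.

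Npy and Sst had the smallest changes of the 9 genes over the dosed groups. Npy lay between -0.15 ± 0.22 (SE) and 0.14 ± 0.22 of its vehicle, and Sst between -0.27 ± 0.15 and 0.19 ± 0.16. Pvalb had larger changes, from -0.57 ± 0.53 to 0.88 ± 0.50, which its spread between animals left without a call: its 4 values at 1 mg/kg in C ran from 9.05 to 11.06 and its 3 vehicle values from 8.59 to 10.16. Outside 50 mg/kg, Calb1 lay between -0.33 ± 0.21 and 0.40 ± 0.21 and Calb2 between -0.38 ± 0.64 and 0.59 ± 0.64.

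The receptors of these peptides and other interneuron and EF-hand genes were followed from fixed lists. Of 9 tested receptor genes, 18 other interneuron genes and 19 other EF-hand genes, none passed after adjustment in any comparison of a dose with vehicle (limma). At 50 mg/kg in A the somatostatin receptor gene Sstr1 was at -0.61 ± 0.21 (SE) and Adcyap1r1, whose receptor binds a peptide related to Vip, at 0.29 ± 0.17. Slc32a1, which encodes the vesicular GABA transporter, was at 0.61 ± 0.28 there, and Gad1, a GABA-synthesising enzyme, at 0.41 ± 0.21. Among the EF-hand genes Ncald, encoding neurocalcin, was at -0.36 ± 0.16 and Ppp3r1, the regulatory subunit of calcineurin, at -0.25 ± 0.11. Of these lists 0, 1 and 1 genes were higher and 1, 0 and 3 lower at an unadjusted p under 0.05, where 4.08% of all probe sets were higher and 5.48% lower. The medians of the 3 lists were 0.03, 0.09 and -0.08, beside 0.01 over all probe sets.

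Between vehicle groups some of these genes passed, at shares close to the 10.3% of all probe sets that passed between B and C. Sox6, a transcription factor of interneuron development, was higher in B than in C by 1.13 ± 0.33 (SE, limma, adjusted p = 0.0247), and Gad2 by 0.97 ± 0.30 (adjusted p = 0.0372), 2 of 18. Among the EF-hand genes Hpcal4 was higher in B by 1.38 ± 0.25 (adjusted p = 7.42e-04) and the calmodulin gene Calm2 by 0.29 ± 0.06 (adjusted p = 0.0042), 2 of 19. Calm2 was also higher in A than in C, by 0.28 ± 0.07 (adjusted p = 0.0317).

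How the members co-varied between pieces was asked with Pearson's r and Spearman's rho over the 39 pieces, for all 36 pairs. After adjustment 12 pairs passed, 7 positive and 5 negative (permutation test with 100000 resamples, Benjamini-Hochberg over the 36). How many pairs of other probe sets would pass the same test was not computed, so the count does not set these genes apart. Of the 12, 7 kept their sign within A, B and C. On deviations from the means of the 12 groups 3 pairs passed: Vip with Cck, Cck with Calb1 and Npy with Sst.

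Vip and Cck were the most closely linked members. Over 39 pieces r was 0.82 and rho 0.79, with a permutation p of 1e-05 for each, the smallest that 100000 resamples can give, and an adjusted p of 3.6e-04. It was 0.83 within A, 0.81 within B and 0.87 within C, 0.76 on deviations from group means and 0.74 without the 2 pieces farthest from the median of Vip. At 50 mg/kg in A animal 3 was the lowest of all 39 pieces in both genes.

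Cck and Calb1 varied in opposite directions. Their r was -0.63 and rho -0.63 (permutation p = 5e-05 for r, adjusted 9e-04, and 1e-05 for rho), with -0.56, -0.71 and -0.75 within A, B and C and -0.58 without the 2 pieces farthest from the median of Cck. The deviations from group means gave -0.48. Vip and Calb1 had r = -0.50 and rho = -0.56 (permutation p = 0.00136 and 0.00021, adjusted 0.00816 and 0.00151), with -0.53, -0.45 and -0.64 within experiments and -0.52 without the 2 farthest pieces.

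Npy and Sst, peptides that often share an interneuron, varied together less tightly. Their r was 0.48 and rho 0.45 (permutation p = 0.00196 and 0.0048, adjusted 0.00909 and 0.0216), with 0.45, 0.32 and 0.63 within A, B and C, 0.48 on deviations and 0.43 without the 2 pieces farthest from the median of Npy. Vip with Pvalb had r = 0.52 and rho = 0.48 (permutation p = 0.00063 and 0.00217, adjusted 0.00598 and 0.0112), and within experiments 0.22, 0.79 and 0.67. Without the 2 pieces farthest from the median of Vip it was 0.40.

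**Figure D4:**
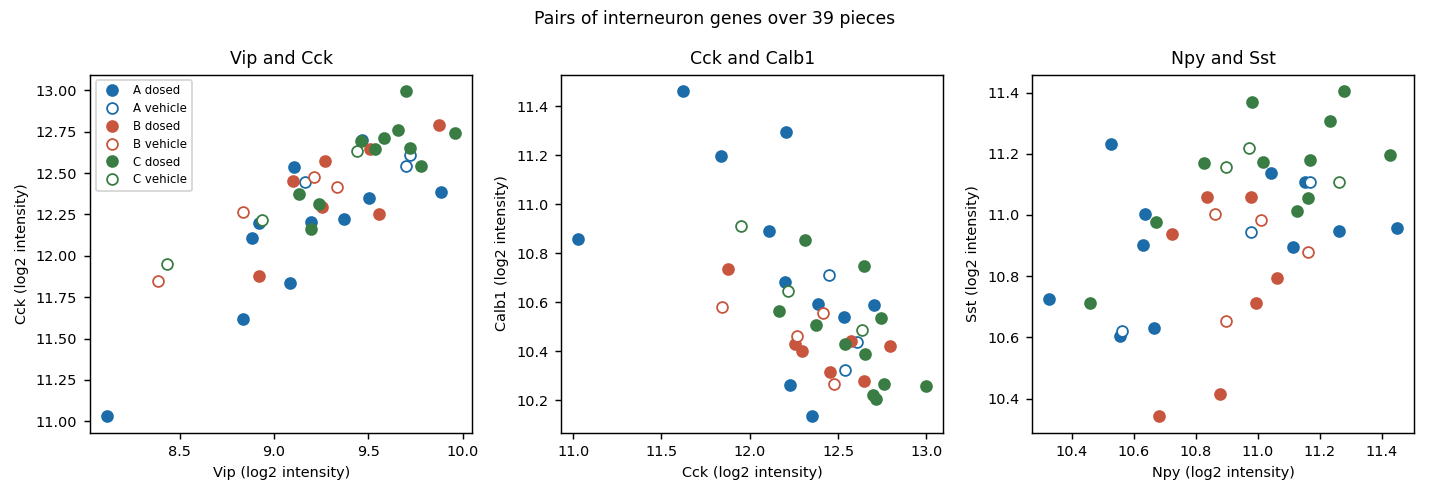
Log2 intensities of 3 pairs of genes over 39 pieces, with colours for experiments, open circles for vehicle and filled circles for dosed pieces. Vip and Cck rise together in every experiment (r = 0.82), Cck and Calb1 run in opposite directions (r = -0.63), and Npy and Sst form a wider cloud (r = 0.48).

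The remaining pairs that passed held less well by at least 1 measure: by rank, without 2 pieces, within single experiments or on deviations. Calb1 with Calb2 had r = 0.48 but rho = 0.29 (permutation p = 0.00202 and 0.0767, adjusted 0.00909 and 0.197), r = 0.25 without the 2 pieces farthest from the median of Calb1, and -0.36 within B. Cck with Calb2 had r = -0.40 and rho = -0.26 (permutation p = 0.011 and 0.112, adjusted 0.0395 and 0.238), -0.18 without 2 pieces, and 0.15 within B. Necab1 with Sst had r = -0.52 and rho = -0.56 (permutation p = 0.00076 and 0.00017, adjusted 0.00598 and 0.00151), but -0.57, 0.61 and -0.27 within A, B and C and -0.17 on deviations. Necab1 with Pnoc had r = -0.52 and rho = -0.60 (permutation p = 0.00083 and 7e-05, adjusted 0.00598 and 8.4e-04), but -0.63, 0.07 and -0.30 within experiments and -0.18 on deviations. Sst with Pnoc had r = 0.42 and rho = 0.53 (permutation p = 0.00724 and 0.00051, adjusted 0.029 and 0.00306), with 0.48 without 2 pieces, 0.30 on deviations and 0.25, 0.10 and 0.02 within A, B and C. Cck with Pvalb had r = 0.39 and rho = 0.31 (permutation p = 0.0135 and 0.0567, adjusted 0.0441 and 0.170), with 0.47 without 2 pieces, 0.33 on deviations and 0.22, 0.67 and 0.51 within experiments. Pnoc with Pvalb had r = 0.38 and rho = 0.38 (permutation p = 0.016 and 0.0165, adjusted 0.0479 and 0.0662), with 0.30 without 2 pieces and -0.26, 0.67 and 0.31 within experiments.

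**Figure D5:**
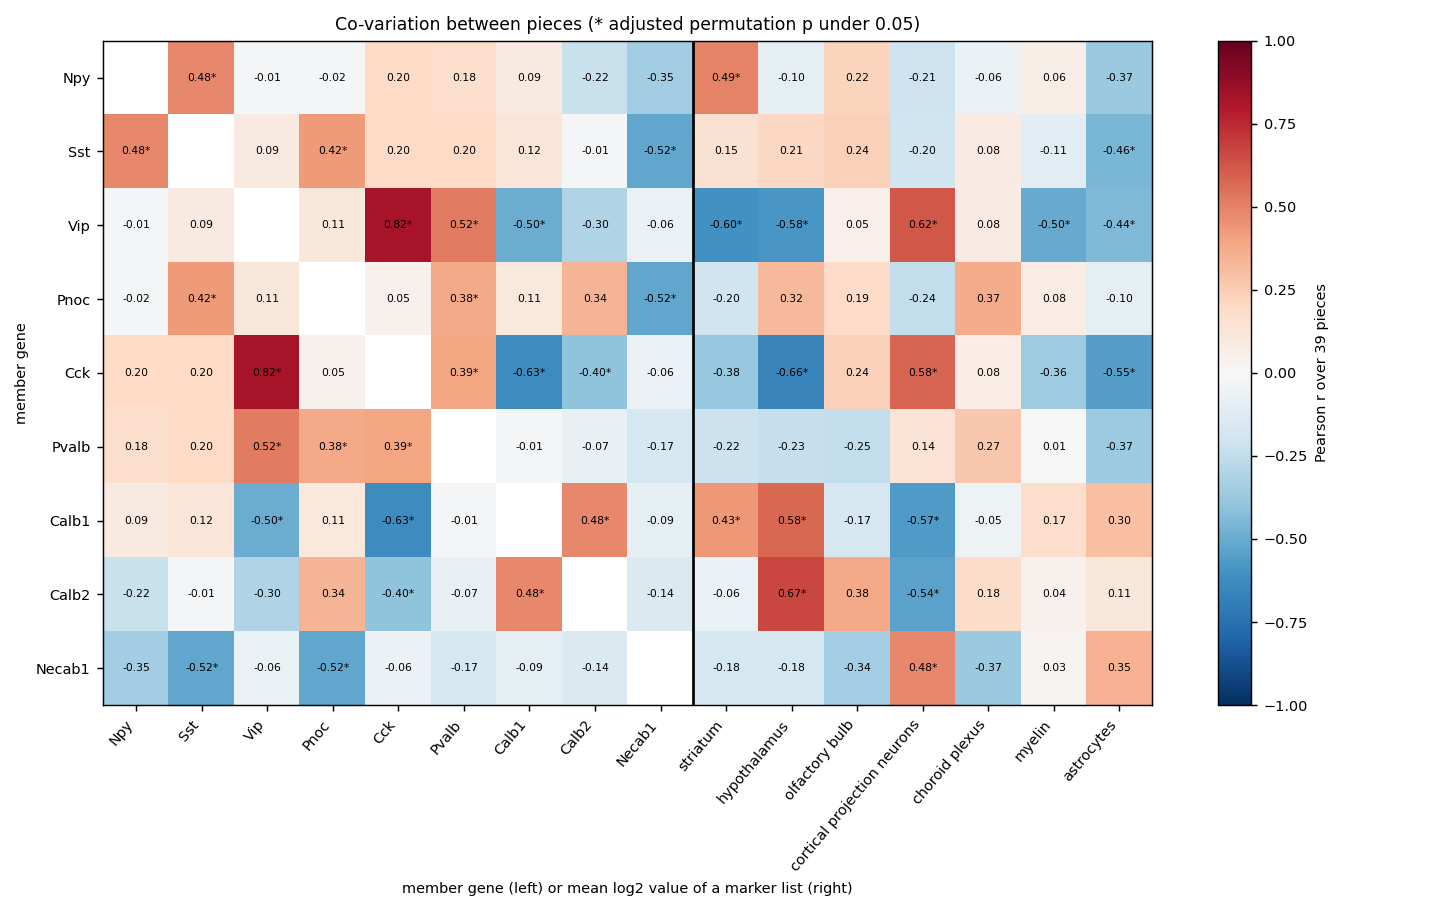
Pearson's r over 39 pieces between the 9 interneuron genes (left of the line) and between them and the mean log2 intensity of 7 marker lists (right), coloured from -1 to 1, with asterisks at an adjusted permutation p under 0.05. Vip and Cck share their signs with the striatal, hypothalamic and cortical projection scores, and Calb1 has the opposite signs.

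The members were also set against the 7 regional and glial scores. Of the 63 pairs 16 passed, 7 positive and 9 negative, and 15 of these kept their sign within all 3 experiments. The share that other probe sets would reach with these scores was not computed either. Vip and Cck were high where the cortical projection score was high, with r = 0.62 and 0.58 and rho = 0.52 and 0.43 (permutation p = 2e-05 and 1.2e-04 for r, 0.001 and 0.00685 for rho, adjusted 6.3e-04 and 0.00151 for r). Within A, B and C the values were 0.72, 0.76 and 0.63 for Vip and 0.71, 0.80 and 0.61 for Cck, and without the 2 farthest pieces 0.53 and 0.44.

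Vip was low in pieces with a high striatal score, with r = -0.60 and rho = -0.64 (permutation p = 4e-05 and 3e-05, adjusted 8.4e-04 and 9.45e-04), and -0.48, -0.71 and -0.87 within A, B and C. Without the 2 farthest pieces it was -0.67. Calb1, which striatal projection neurons also make, had the opposite sign with that score, r = 0.43 and rho = 0.57 (permutation p = 0.00576 and 0.00018, adjusted 0.0227 and 0.00284), with 0.47, 0.64 and 0.74 within experiments. Calb1 with the cortical projection score had r = -0.57 and rho = -0.53 (permutation p = 2.5e-04 and 4.7e-04, adjusted 0.00213 and 0.00592), with -0.62, -0.52 and -0.78 within experiments. Npy with the striatal score had r = 0.49 and rho = 0.47 (permutation p = 0.00131 and 0.00249, adjusted 0.00719 and 0.0112), which was 0.78 within A, 0.57 within B and 0.02 within C.

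Calb2 tended to rise with the hypothalamic score, with r = 0.67 and rho = 0.49 (permutation p = 1e-05 and 0.00168, adjusted 6.3e-04 and 0.00962). Within A, B and C it was 0.72, 0.35 and 0.61, and without the 2 pieces farthest from the median of Calb2 it was 0.61. Cck with that score had r = -0.66 but rho = -0.39 (permutation p = 7e-05 and 0.0162, adjusted 0.0011 and 0.0488), and r = -0.39 without the 2 pieces farthest from the median of Cck. A few pieces carry the high hypothalamic scores, among them 50 mg/kg animals 3 and 4 of A at 10.67 and 10.91, where Calb2 was 10.51 and 11.39, and 1 mg/kg animal 2 of A at 10.14, where Calb2 was 10.61. Other pieces had high Calb2 at far lower hypothalamic scores. Calb2 was 10.71 in 1 mg/kg animal 3 of C (score 8.03) and 10.62 in 10 mg/kg animal 5 of A (7.63). It was 10.41 in 10 mg/kg animal 2 of C (7.92) and 10.11 in vehicle animal 3 of B (7.84). Vip with that score had r = -0.58 and rho = -0.66 (permutation p = 2.3e-04 and 2e-05, adjusted 0.00213 and 9.45e-04), with -0.73, -0.86 and -0.49 within experiments and -0.49 without 2 pieces. The other pairs that passed were Vip with the myelin (r = -0.50) and astrocyte (-0.44) scores, Cck (-0.55) and Sst (-0.46) with the astrocyte score, Calb1 with the hypothalamic score (0.58), and Calb2 (-0.54) and Necab1 (0.48, with 0.84, 0.54 and 0.30 within A, B and C) with the cortical projection score (adjusted permutation p from 0.00213 to 0.0196 for r). By rank Calb1 with the hypothalamic score did not pass (rho = 0.35, permutation p = 0.031, adjusted 0.0758). Its r was 0.66, 0.14 and 0.19 within A, B and C. The r of Cck with the astrocyte score ran from -0.56 to -0.13 over the alternative settings other than single pieces left out. Pvalb passed with none of the 7 scores, and its r with them ran from -0.37 to 0.27.

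For each member the 3 genes with the highest r over the 39 pieces were listed among 9339 probe sets with a single symbol that passed the filter, as a description. Vip was most like Tmem178a (r = 0.90), Dkk3 (0.83) and Cck (0.82), and Cck was most like Vxn (0.88), Kcnmb4 (0.86) and Mpped1 (0.83). Calb2 was most like Slc17a6 (0.83), which encodes a vesicular glutamate transporter abundant in thalamus and hypothalamus, then Kcnj16 (0.78) and Cbln1 (0.77). Pvalb had Eps8l2 (0.83), Septin6 (0.79) and Cend1 (0.78), and Calb1 had Unc13c (0.76), Il33 and Tspan9 (0.67 each).

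For the other members the values on deviations from group means are given as well. Necab1 had Rock2 (r = 0.92), Ap2b1 (0.90) and Ube2h (0.90), which on deviations were at 0.76, 0.84 and 0.82. Pnoc had Fuca2 (0.75), Oxa1l (0.74) and Tango2 (0.74), with 0.58, 0.31 and 0.49 on deviations. Sst had Psmg3 (0.71), Ndel1 (0.70) and Reep5 (0.67), with 0.52, 0.47 and 0.37 on deviations. Npy had Txndc17 (0.67), Gnb5 (0.64) and Ndufb7 (0.63), and its 3 values on deviations lay between 0.64 and 0.69.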

How the data were processed

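The deposited table holds a linear intensity for every probe set of an Affymetrix rat array. Which software summarised the probes is not given in the sources. The authors labelled 15 ug of total RNA with biotin, per the labels. Of 46 arrays, 39 whose median log2 correlation with the others was at least 0.5 were used, and 7 were left out. Each array was scaled to a common median, values under the 5th percentile (10.8) were raised to it, and the result was log2 transformed and quantile normalised, and probe sets with a mean under the 30th percentile were dropped. The platform table gave symbols (12783 probe sets with 1 symbol, 312 with several, 2771 with none). S100b and Lamp5 stand in more than 1 list.

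Fits used limma 3.58.1 in R 4.3.3 (trend=TRUE, Benjamini-Hochberg over 11106 probe sets, threshold 0.05, two-sided), either with experiment and dose as terms or with 12 group means, and were tested on simulated data. The single 5 mg/kg piece of B was taken to vary like the other groups. Correlations used numpy 2.4.6, with ranks from scipy 1.17.1, and 100000 permutations, two-sided. The alternative settings, among them the deviations from group means, used fewer permutations. Every member was described, and its change was named where the unadjusted p was under 0.05 or the smallest. Array number limits the precision. The members and lists were chosen with earlier results of these data known. Alternatives covered normalisation, floor, filter, robust variance, the replicate block, repeat arrays, whole experiments and single arrays.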

Additional observations from a re-analysis of the deposited data

Results flagged for a closer look

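Among 36 sets of a member in a group of 4 or 5 pieces, 3 held a piece far from the rest of its group, and chance gives about 1 in 20 such sets. Necab1 in 10 mg/kg animal 4 of experiment C was 6.94, where the next piece was at 7.85. Pvalb in 10 mg/kg animal 5 of experiment A was 11.14, where the next piece was at 10.09, and that piece also had the second highest Calb2 of experiment A at 10.62. Pnoc in 1 mg/kg animal 2 of experiment C was 7.46, in a group that otherwise lay between 7.29 and 7.32.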

How the results depend on the processing

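Leaving out experiment C gave 1 member called at 50 mg/kg and 1 at any dose, against 0 with all pieces. Shares of all probe sets called were not recorded for the alternative fits. With a replicate block for the sample number of the titles, 0 members in place of 1 passed between the vehicle pieces of A and C (Necab1, adjusted p = 0.0593 in limma), and no other call of a member changed. The numbers do not pair the pieces: deviations of same-numbered pieces correlated at a median of 0.0035 (43 pairs, 9 over 0.1), and of others at 0.0029 (135 pairs, 31 over 0.1). Without single pieces the members called ranged from 0 to 1 between the vehicle pieces of A and C and at 50 mg/kg in A, and from 1 to 2 between B and C and in the F test of vehicle pieces. Pairs of members passing ranged from 9 to 13, and pairs with a marker score from 15 to 19. On deviations from group means 3 pairs of members passed, and 2, 0 and 2 within A, B and C. Pairs with a marker score were 9 without quantile normalisation, 2 within B and 7 within C. The sign turned for Pnoc with Pvalb (r = -0.26) and Sst with the astrocyte score (r = 0.23) within A, and within B for Sst with Necab1 (0.61), Pnoc with Necab1 (0.066), Cck with Calb2 (0.15) and Calb1 with Calb2 (-0.36). The cause was not tested; within an experiment 11 or 14 pieces are left. The table gives no detection calls, so dim values have no stated background.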
